A study of Mus musculus with 35 samples.

Results

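The genes described here are 37 genes that are enriched in mature oligodendrocytes and are neither structural myelin proteins, transcription factors nor lipid enzymes. They were chosen by symbol from a list of known oligodendrocyte genes, with earlier results of these data known, although the rule itself uses no measured value, and all 37 were found among the 35976 gene symbols of the deposited count files. By role they are 7 genes of the cytoskeleton and process scaffold (Ermn, Tppp, Gsn, Anln, Ppp1r14a, Sirt2, Arhgef10), 11 of the membrane, adhesion and trafficking (Tspan2, Pllp, Plekhb1, Evi2a, Cmtm5, Ninj2, Jam3, Itgb4, Plxnb3, Tmem88b, Tmem125) and 6 receptors, channels and signalling proteins (Gpr37, Gng11, Hhip, Tmem63a, Efhd1, Dbndd2). The others are 6 secreted factors, proteases and protease inhibitors (Il33, Enpp2, Adamts4, Klk6, Serpinb1a, Trf), 6 enzymes and protein quality control genes (Cryab, Josd2, Rnf220, Padi2, Galnt6, Carns1) and Prr18, whose role is not assigned.

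Mature oligodendrocytes wrap axons of the central nervous system in myelin. To do this a cell extends many processes, which needs microtubules and actin, moves membrane into the growing sheath, and supplies itself with iron. Oligodendrocytes make the iron carrier transferrin. The cells also release proteases and signals into their surroundings and continue to support the axon after the sheath has formed, so their mature state is marked by many genes that are not part of myelin's own structure.

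The study asked how polyglutamine-expanded ataxin-7 changes gene expression in the respiratory control regions of an infantile spinocerebellar ataxia type 7 (SCA7) mouse. RNA was sequenced from the medulla and the cervical spinal cord of SCA7 mice, which carry 1 knock-in copy of the ataxin-7 gene with an expanded CAG repeat (266Q) beside a normal copy (5Q), and of WT littermates, on the C57Bl/6J background and of both sexes. At 9 weeks, the preterminal stage, there were 5 libraries of each genotype in each tissue. At 5 weeks there were 2 of each genotype in each tissue, and at postnatal day 8 (P8) there were 2 of each genotype in the medulla and 1 WT and 2 SCA7 libraries in the cord. The 35 libraries came from 18 mice, and the medulla and cord of a mouse are named by 1 mouse identifier, so the tissues are not independent. The knock-in is carried by every cell, and gene counts do not show the length of the repeat, so genotype was taken from the labels alone.

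The libraries fell into a deep and a shallow set. The 15 deep libraries held 28969003 to 99353286 counts and the 20 shallow libraries held 95917 to 396417. In a shallow library 1 count was worth 2.7 to 10.1 CPM, the counts scaled to a library total of 1000000, and 10 to 27 of the 37 members reached 10 counts, against all 37 in each deep library. At 9 weeks each genotype and tissue held 2 deep and 3 shallow libraries. In the 5-week medulla, by contrast, depth followed genotype, with 2 deep WT and 2 shallow SCA7 libraries, and the effects of each cannot be told apart. In the 5-week cord 1 WT library was deep and 1 shallow, and both SCA7 libraries were shallow, so depth is partly tied to genotype. In 1 SCA7 medulla library of 9 weeks (replicate 2) a single mitochondrial gene took 25.9% of the counts. Oligodendrocyte markers outside the 37 genes were present in every 9-week group, with structural myelin, lipid enzyme and transcription factor genes all measured, so the label of the gene group suits the tissue. The RNA is from whole tissue, in which fewer oligodendrocytes and less RNA per oligodendrocyte cannot be told apart.

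At 9 weeks some of the mature oligodendrocyte genes were lower in SCA7 mice in each tissue, and the others did not pass the test. In the medulla 14 of the 37 members fell and none rose, and 23 did not pass the test (edgeR's quasi-likelihood test, adjusted p under 0.05 over all genes). Of the 19157 genes tested there, 2.41% fell and 4.56% rose. In the cord 18 members fell, none rose and 19 did not pass, where 3.54% of 19263 genes fell and 1.52% rose. Over the members the log2 fold changes had a median of -0.61 (medulla) and -1.08 (cord), beside 0.08 and -0.02 over all genes tested. The same 12 members fell in both tissues, which is 85.7% of those that fell in the medulla and 66.7% of those in the cord. They were Trf, Tspan2, Ermn, Cryab, Prr18, Tppp, Il33, Klk6, Serpinb1a, Padi2, Efhd1 and Ninj2. Cmtm5 and Tmem125 passed the test only in the medulla, and Gsn, Ppp1r14a, Pllp, Itgb4, Tmem88b and Josd2 only in the cord. Tppp, Tspan2, Ppp1r14a, Il33, Efhd1, Tmem88b, Klk6, Padi2, Prr18 and Trf also stand in lists that the study drew from these same libraries, so their direction here is not independent evidence.

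Each 9-week group was also compared library by library. In the medulla all 5 SCA7 values lay below all 5 WT values for 6 members (Tspan2, Tmem88b, Efhd1, Il33, Trf and Cryab), a pattern that 1.3% of all genes showed. In the cord this held for 15 members, beside 1.41% of all genes. Summed over the 37 members, the level was 4944 to 7022 CPM in the WT medulla and 3856 to 6486 CPM in the SCA7 medulla, so the sums overlapped. In the cord the sums were 8456 to 12389 CPM in WT mice and 4513 to 5650 CPM in SCA7 mice and did not overlap.

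**Figure D1:**
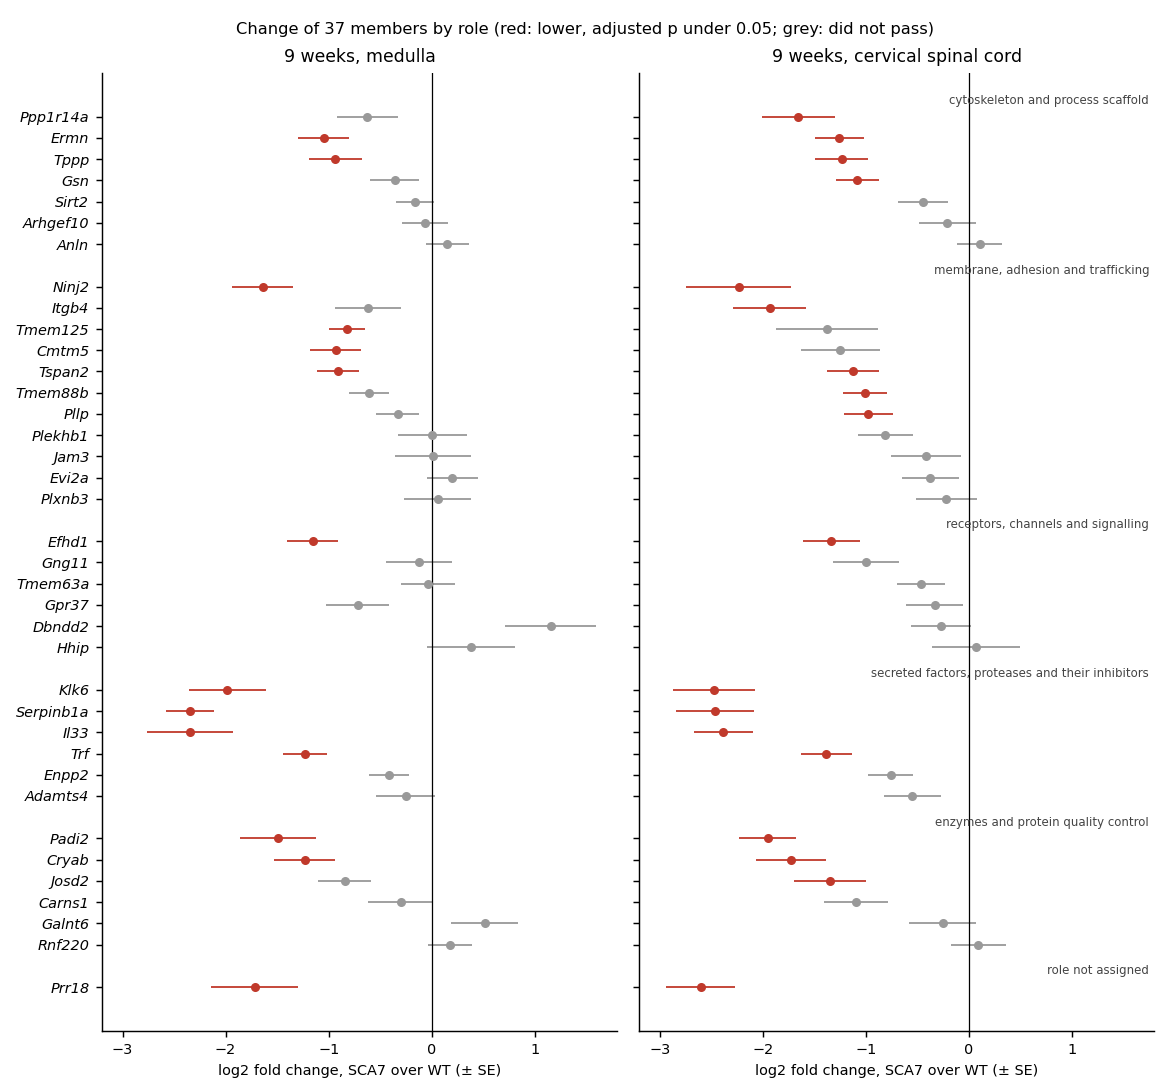
Log2 fold change (SCA7 over WT, whiskers ± SE) of each of the 37 members at 9 weeks, grouped by role, in the medulla (left) and the cervical spinal cord (right), with members that passed the test in red and the others in grey. The 14 medulla calls and the 18 cord calls all lie below 0.

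Among the secreted factors and proteases, 4 of 6 fell in each tissue, and Trf, the iron carrier transferrin, was the most abundant of them. In the medulla Trf stood at 924, 1342, 1222, 881 and 1128 CPM in the 5 WT libraries and at 491, 252, 411, 565 and 516 CPM in the 5 SCA7 libraries. In the cord it stood at 1700.5, 2253, 1861, 937 and 1858 CPM in WT mice and at 710, 541, 529, 869 and 657 CPM in SCA7 mice. The groups did not overlap in either tissue, although the lowest WT cord library, replicate 4, was near the highest SCA7 library. The log2 fold change was -1.23 ± 0.21 (SE, n = 5 and 5, adjusted p = 0.00357 by edgeR) for the medulla and -1.39 ± 0.25 (adjusted p = 0.00408) for the cord. The counting did not state how it treats overlapping genes, and 63.5% of the exonic bases of Trf are shared with the overlapping annotated gene Gm20425.

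Il33, a nuclear cytokine released as an alarm signal, averaged 73.2 ± 30.7 CPM (SD, n = 5) in the WT medulla and 9.13 ± 9.38 CPM in the SCA7 medulla, and 101 ± 33.4 against 21.9 ± 4.51 CPM in the cord. Its ranges did not overlap in either tissue, although its shallow SCA7 medulla libraries held only 1, 0 and 0 counts. The fitted level was 5.08 times higher in WT than in SCA7 medulla and 5.21 times higher in WT than in SCA7 cord. Klk6, a secreted serine protease that can cleave myelin proteins, averaged 40 ± 14.8 against 11.9 ± 8.77 CPM in the medulla. Its shallow medulla libraries averaged 2.67 counts. In the cord it averaged 111 ± 58 against 18.5 ± 11.3 CPM, and the lowest WT library (72 CPM) was above the highest SCA7 library (27.2 CPM). Serpinb1a, an inhibitor of neutrophil proteases, fell by 2.35 ± 0.23 on the log2 scale in the medulla and by 2.46 ± 0.38 in the cord. It was a low gene (17.6 ± 9.83 CPM in the WT medulla, 0.833 counts on average in the shallow medulla libraries) with close paralogs, so its values are uncertain. Enpp2 (autotaxin, which makes lysophosphatidic acid) and Adamts4 (an aggrecan-cleaving protease) did not pass the test in either tissue, with log2 fold changes of -0.41 and -0.25 in the medulla and -0.76 and -0.55 in the cord.

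**Figure D2:**
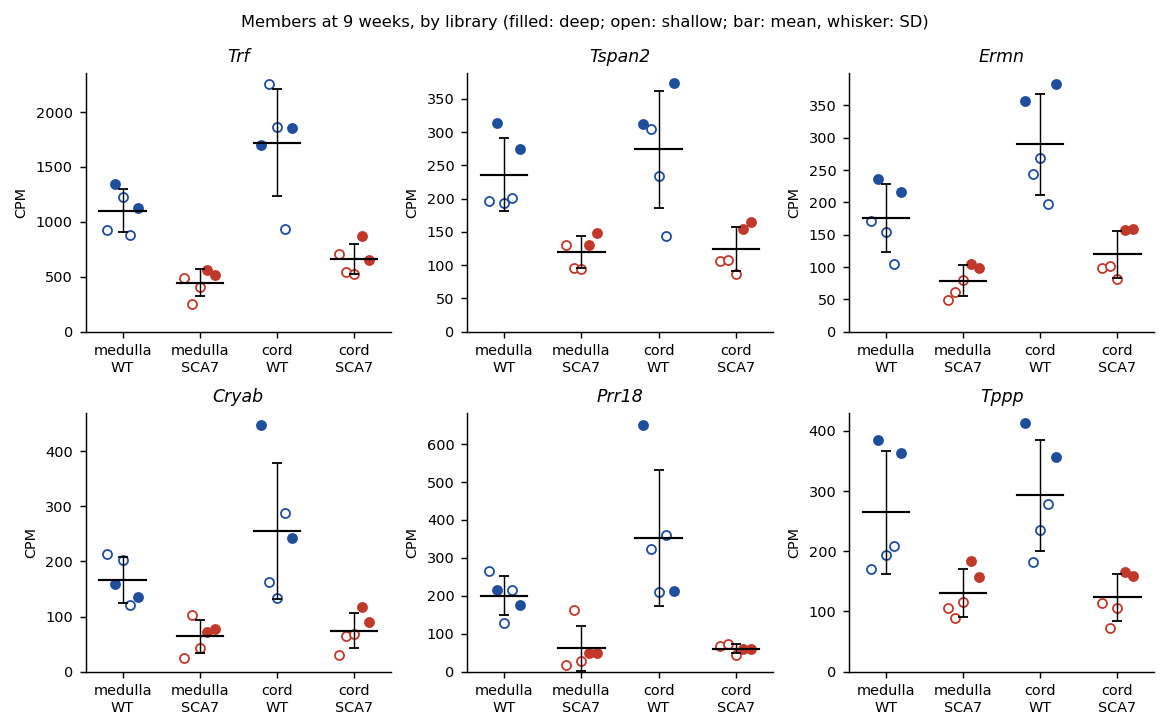
CPM (linear axis) of 6 members in each 9-week library by tissue and genotype, with filled points for deep and open points for shallow libraries, a bar at the group mean and a whisker of 1 SD to each side. Trf and Cryab separate the genotypes in both tissues, Tspan2 in the medulla only, and Ermn, Prr18 and Tppp in the cord only.

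Of the 7 cytoskeleton and process genes, 2 fell in the medulla and 4 in the cord. Ermn encodes ermin, an actin-binding protein of oligodendrocyte processes. It stood at 171, 236, 154, 104 and 216 CPM in the WT medulla and at 49.1, 61.4, 79.3, 105 and 99.2 CPM in the SCA7 medulla. In the cord it stood at 357, 244, 268, 198 and 383 CPM in WT mice and at 99.3, 101, 80.9, 158 and 159 CPM in SCA7 mice. The medulla groups overlapped through WT replicate 4, which was just below the highest SCA7 library, and the cord groups did not overlap. The log2 fold changes were -1.05 ± 0.25 (adjusted p = 0.0191 by edgeR) and -1.26 ± 0.24 (adjusted p = 0.00621).

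Tppp, a microtubule-nucleating protein that shapes the myelin sheath, stood at 171, 386, 194, 208 and 364 CPM in the WT medulla and at 106, 88.7, 115, 184 and 158 CPM in the SCA7 medulla. In the cord it stood at 412, 183, 235, 279 and 356 CPM in WT mice and at 114, 72.2, 106, 166 and 159 CPM in SCA7 mice. The medulla groups overlapped, since WT replicate 1 was below SCA7 replicate 4, and the cord groups did not. The log2 fold changes were -0.93 ± 0.26 (adjusted p = 0.041 by edgeR) and -1.24 ± 0.26 (adjusted p = 0.0107). Gsn, which severs actin filaments, and Ppp1r14a, an inhibitor of myosin phosphatase, passed the test in the cord, with log2 fold changes of -1.08 ± 0.21 and -1.66 ± 0.35. In the medulla they stood at -0.36 and -0.62 without passing. Anln, a scaffold for septins and actin, was at 163 ± 29.4 against 174 ± 18.8 CPM in the medulla and at 196 ± 50.8 against 214 ± 28.8 CPM in the cord, a difference within the spread of the libraries in both. Sirt2, a tubulin deacetylase of myelin, and Arhgef10, a guanine nucleotide exchange factor, did not pass either, with log2 fold changes between -0.44 and -0.06.

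Of the 11 membrane and adhesion genes, 4 fell in the medulla and 5 in the cord. Tspan2, a tetraspanin of the oligodendrocyte membrane, stood at 197, 314, 194, 200.3 and 275 CPM in the WT medulla and at 131, 95.5, 93.7, 131 and 148 CPM in the SCA7 medulla, with no overlap. In the cord it stood at 312, 304, 235, 144 and 374 CPM in WT mice and at 107, 108, 87.2, 154 and 164 CPM in SCA7 mice, where WT replicate 4 lay among the SCA7 libraries. The log2 fold changes were -0.91 ± 0.20 (adjusted p = 0.0151 by edgeR) and -1.13 ± 0.25 (adjusted p = 0.0154). Itgb4, a laminin receptor subunit, averaged 77.1 ± 18.2 against 16 ± 11.2 CPM in the cord without overlap (log2 fold change -1.93 ± 0.36), and stood at -0.62 without passing in the medulla. Ninj2, an adhesion molecule, had the lowest level of the members that fell, 6.69 ± 6.48 CPM in the WT medulla, and its shallow libraries averaged 0.5 counts in the medulla and 0 in the cord, so its log2 fold changes of -1.64 and -2.24 rest on the deep libraries. Pllp (plasmolipin) and Tmem88b fell in the cord by 0.98 and 1.01 on the log2 scale, and the SCA7 medulla values of Tmem88b (139 to 205 CPM) also lay below the WT values (224 to 325 CPM) at an adjusted p of 0.0826. An antisense gene, Gm45767, covers 54.2% of the exonic bases of Pllp, and whether the counting used strand was not stated. The remaining members of the group, Plekhb1, Evi2a, Jam3 and the semaphorin receptor Plxnb3, did not pass in either tissue. Cmtm5 and Tmem125 passed in the medulla (-0.93 and -0.82) and had lower log2 fold changes in the cord (-1.25 and -1.37) that did not pass there. The medulla call of Cmtm5 held in 9 of 19 alternative analyses.

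Of the 6 enzyme and quality control genes, 2 fell in the medulla and 3 in the cord. Cryab, the small heat shock protein alpha-B crystallin, stood at 214, 159, 202, 120.2 and 135 CPM in the WT medulla and at 24.5, 102, 43.2, 72.5 and 77 CPM in the SCA7 medulla. In the cord it stood at 448, 162, 134, 288 and 243 CPM in WT mice and at 30.5, 65, 68.5, 118 and 90.9 CPM in SCA7 mice. Neither pair of groups overlapped, and the log2 fold changes were -1.23 ± 0.30 (adjusted p = 0.0226 by edgeR) and -1.72 ± 0.34 (adjusted p = 0.00728). Padi2, which converts arginine residues of myelin basic protein to citrulline, averaged 63.6 ± 27.8 against 23.1 ± 15.1 CPM in the medulla and 171 ± 55 against 43.4 ± 12.9 CPM in the cord, with log2 fold changes of -1.49 ± 0.37 and -1.95 ± 0.28. Josd2, a deubiquitinase, passed in the cord only (-1.35 ± 0.35), and that call held in 8 of 20 alternative analyses. Rnf220 (a ubiquitin ligase), Galnt6 (O-glycosylation) and Carns1 (carnosine synthase) did not pass, with log2 fold changes from -0.30 to 0.51 in the medulla and from -1.10 to 0.09 in the cord.

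Prr18 had the largest log2 fold change of the 37 members in the cord. It stood at 649, 325, 209.6, 360.2 and 213 CPM in the 5 WT cord libraries and at 68.7, 72.2, 43.6, 58.9 and 59.7 CPM in the SCA7 cord libraries, with no overlap. In the medulla it stood at 265, 215, 129, 216 and 176 CPM in WT mice and at 16.4, 164, 28.8, 48.5 and 49.4 CPM in SCA7 mice, where SCA7 replicate 2, the library rich in 1 mitochondrial gene, was the only one to reach the WT range. The log2 fold changes were -1.72 ± 0.42 (adjusted p = 0.0249 by edgeR) and -2.60 ± 0.33 (adjusted p = 0.00048). Of the 6 receptors, channels and signalling proteins, only Efhd1, a calcium-binding protein of mitochondria, fell, by 1.16 ± 0.25 in the medulla and 1.33 ± 0.28 in the cord. Gpr37, Gng11, Hhip, Tmem63a and Dbndd2 did not pass. Dbndd2 had the highest log2 fold change in the medulla, 1.15 ± 0.44 (adjusted p = 0.152), where its SCA7 mean of 586 ± 566 CPM was set by replicate 2.

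Not all members thus passed the test, and in neither tissue did any pass it upward. Not passing does not show that a member was unchanged. Across the 37 members the log2 fold changes of the medulla and the cord had a Pearson correlation of 0.893 and a Spearman correlation of 0.906, against 0.417 and 0.388 across 18582 genes, and 28 members were negative in both. The tissues come from the same mice, so these correlations are a description only. The difference of the SCA7 change between the tissues, fitted with the mouse kept as a block, passed the test for no member (2.36% of all genes passed with a negative estimate, that is a lower SCA7 over WT fold change in the cord than in the medulla, and 0.418% with a positive one), and 6 members had an unadjusted p under 0.05. Its estimate was negative for 36 members, with a median of -0.29. The medulla-only and cord-only calls above are therefore not shown to differ between tissues.

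Regulatory sequence is shown for members whose calls differed. The 250 bases before the transcript start (RefSeq, GRCm38.p6) are given for Ermn, Prr18 and Tspan2, which fell in both tissues at 9 weeks. They are also given for Sirt2, which passed the test in neither tissue. Capitals mark the SOX core words ACAAAG or ACAATG on either strand, the words bound by SOX factors such as the oligodendrocyte factor SOX10. The windows are chr2:58052865-58053114 (minus strand) for Ermn, chr17:8340156-8340405 (plus) for Prr18, chr3:102734520-102734769 (plus) for Tspan2 and chr7:28766502-28766751 (plus) for Sirt2.
Ermn: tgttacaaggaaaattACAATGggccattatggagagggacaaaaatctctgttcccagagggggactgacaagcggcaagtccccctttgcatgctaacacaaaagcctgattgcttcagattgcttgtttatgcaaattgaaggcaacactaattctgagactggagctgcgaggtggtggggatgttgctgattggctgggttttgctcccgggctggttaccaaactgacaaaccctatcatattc
Prr18: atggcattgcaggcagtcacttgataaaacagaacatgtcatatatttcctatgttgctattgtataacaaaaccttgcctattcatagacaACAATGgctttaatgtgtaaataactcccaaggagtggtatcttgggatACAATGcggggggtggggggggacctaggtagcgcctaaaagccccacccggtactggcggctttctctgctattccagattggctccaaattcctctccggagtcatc
Tspan2: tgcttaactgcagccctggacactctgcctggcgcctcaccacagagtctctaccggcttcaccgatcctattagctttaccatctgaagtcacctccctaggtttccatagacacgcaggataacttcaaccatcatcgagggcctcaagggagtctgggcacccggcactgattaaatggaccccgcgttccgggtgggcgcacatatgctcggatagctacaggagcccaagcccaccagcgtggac
Sirt2: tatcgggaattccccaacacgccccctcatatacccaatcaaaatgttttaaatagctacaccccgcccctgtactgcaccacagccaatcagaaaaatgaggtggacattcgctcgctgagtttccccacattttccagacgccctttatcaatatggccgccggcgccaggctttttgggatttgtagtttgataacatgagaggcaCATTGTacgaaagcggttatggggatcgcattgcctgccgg
The words occurred 1 time in the Ermn window, 2 times in the Prr18 window, 0 times in the Tspan2 window and 1 time, on the reverse strand, in the Sirt2 window. Prr18 and Tspan2 have a further annotated start, whose window held 1 each. RefSeq windows were matched for 25 of the 37 members, with 34 starts in all, and 12 of these 34 windows (35.3%) held a SOX core word, beside 25.2% of 32851 windows over all genes. The MYRF core words CTGGCAC or CTGGTAC occurred in 2.94% of the member windows and 5.93% of all windows, and the OLIG2 E-box CAGCTG in 14.7% and 13.0%. The words are a description of letters in these windows and not of binding.

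The other gene lists of the oligodendrocyte lineage were read beside the members. Of 9 structural myelin genes, 4 fell in the medulla and 8 in the cord, with medians of -0.94 and -1.34. Of 7 myelin lipid enzymes, 3 fell in the medulla and 4 in the cord, led by Ugt8a, which makes galactosylceramide (-2.36 and -2.43). Of 8 oligodendrocyte transcription factors none fell and Zfp488 rose in the medulla (0.91 ± 0.24), and in the cord only Sox10 fell (-1.04 ± 0.21), with list medians of -0.15 and -0.59. Of 10 precursor genes, 2 fell in each tissue, with medians of -0.21 and -0.70. The median of the 37 members thus lay between those of the structural myelin genes and the transcription factors in both tissues.

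**Figure D3:**
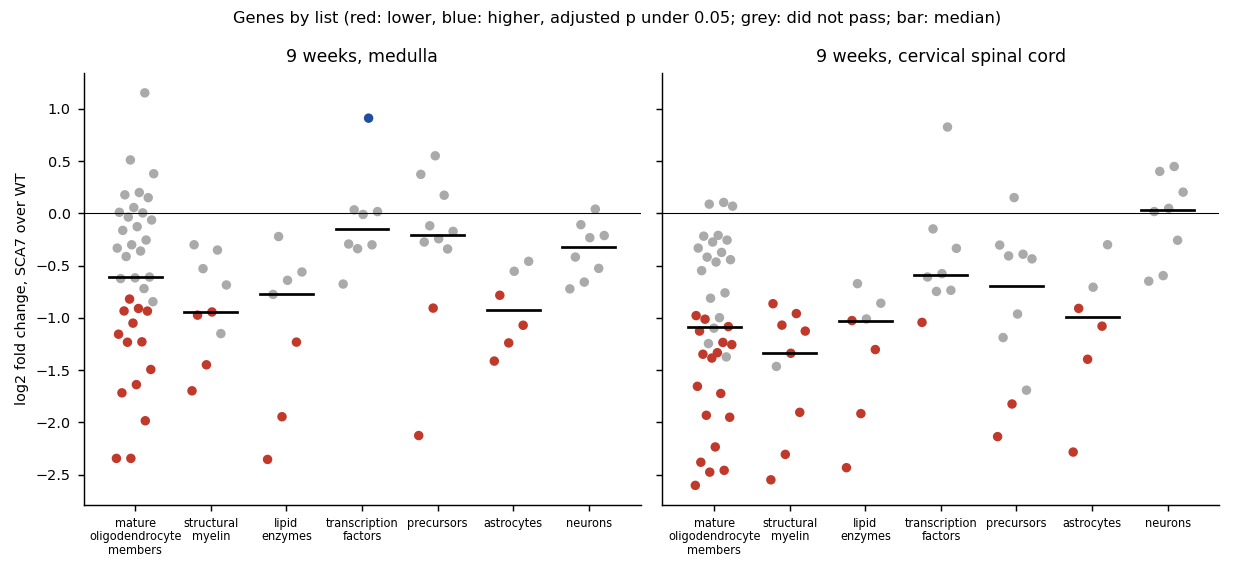
Log2 fold change (SCA7 over WT) at 9 weeks of each gene of the 37 members and of 6 other lists, in the medulla (left) and the cervical spinal cord (right), with red points lower and blue points higher at an adjusted p under 0.05, grey points that did not pass, and a bar at each list's median. The members' medians are -0.61 and -1.08, between those of structural myelin and of the transcription factors.

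Markers of other cell types moved too. Of 6 astrocyte genes, 4 fell in each tissue (medians -0.93 and -0.99), and of 6 microglia genes, 3 fell in the medulla and 1 in the cord (medians -1.02 and -1.72). Of 8 neuron genes none passed in either tissue (medians -0.33 and 0.03), and of 6 endothelial genes none passed (medians -0.25 and -1.34). In the cord 5 of 7 Schwann cell genes and 7 of 7 meningeal fibroblast genes fell (medians -3.62 and -3.17). The Schwann sum ran from 40.6 to 261 CPM in WT and from 43.3 to 54.6 CPM in SCA7 cord libraries, with Pmp2 at 0 in every SCA7 cord library, and the meningeal sum from 122 to 1252 CPM in WT and from 30.5 to 69.6 CPM in SCA7. WT replicate 4 was the highest for both and without it 20 members fell in the cord, a count given without its share over all genes. The other WT cord libraries had meningeal sums of 122 to 729 CPM, still above every SCA7 cord library. Leaving out replicate 4 therefore does not remove the difference in meningeal genes. In the medulla 2 Schwann genes, Ncmap and Egr2, rose and no meningeal gene passed, and of the choroid plexus genes none passed in the medulla and 2 fell in the cord. The part of these lists in the members' result was not tested.

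The 9-week result was read within each depth. With the deep libraries alone, 25 members fell in the medulla, the same 14 among them, and none in the cord, where all 18 called members kept a negative sign and the members' median was -1.11. With the shallow libraries alone, 6 of 27 members tested fell in the cord and 0 of 24 in the medulla, where the 8 called members that could be tested were all negative. The called members were chosen from fits that held these same libraries, so their sign within each depth is not independent evidence. With depth as a term, 22 members fell in the medulla and 24 in the cord, the same 14 and 18 among them. The share of all genes called in these fits is not given here, so larger counts are not read as a stronger result. The medulla count rests on the deep libraries. It was 3 without WT replicate 2, 7 without WT replicate 5, 7 without SCA7 replicate 4 and 5 without SCA7 replicate 5, which are the 4 deep libraries of that comparison. With edgeR's bias-adjusted deviances the medulla count was 1, Trf, and the cord count was 15, and with DESeq2 the counts were 8 and 17. In the cord the count was 12 to 20 when single libraries were left out.

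Single calls in the medulla were of unequal firmness. Trf kept its call in every fit with 1 library left out. Tspan2 (adjusted p = 0.072 and 0.0535) and Ermn (adjusted p = 0.0809 and 0.0652) lost theirs without WT replicate 2 or 5. Cryab lost its call without WT replicate 2 and without SCA7 replicates 4 and 5 in turn. Prr18 lost its call without any 1 of WT replicates 1 and 2 and SCA7 replicates 3, 4 and 5. Tppp did so without any 1 of WT replicates 2 and 5 and SCA7 replicates 1, 3 and 5. Over all alternatives Tppp kept its medulla call in 9 of 21 and Trf in 19 of 21, and in the cord both kept theirs in 19 of 21. Efhd1 kept its medulla call in 11 of 19 alternatives and Cmtm5 in 9 of 19.

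Scaling by library totals in place of edgeR's TMM factors moved the median log2 fold change of all genes in the cord from -0.02 to 0.28. The members' median then went from -1.08 to -0.75, and relative to all genes from -1.07 to -1.03. The count of members that fell in the cord went from 18 to 8, with none rising, while the calls over all genes went from 682 lower and 292 higher to 384 lower and 468 higher.

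At 5 weeks, before symptoms, 1 member fell in each tissue and it was Tspan2 in both. In the medulla 0.0597% of genes fell and 0.787% rose, and in the cord 0.0699% fell and 0.658% rose. Tspan2 stood at 397 and 417 CPM in WT and at 87.6 and 84.4 CPM in SCA7 medulla (log2 fold change -2.04 ± 0.24, adjusted p = 0.008 by edgeR), and at 556 and 505 CPM in WT and 117 and 211 CPM in SCA7 cord (-1.56 ± 0.39, adjusted p = 0.0136). Plxnb3, a semaphorin receptor, rose in the medulla, from 88.5 and 108 CPM in WT to 245 and 253 CPM in SCA7 mice (1.54 ± 0.24, adjusted p = 0.036). These SCA7 medulla values rest on shallow libraries, and Tspan2 was seen there with 10 counts in each. In the 9-week WT medulla Tspan2 stood at 197, 194 and 200.3 CPM in shallow and 314 and 275 CPM in deep libraries. Plxnb3 stood there at 171, 194 and 64.1 CPM in shallow and 105 and 88 CPM in deep libraries. In the 5-week WT cord Plxnb3 stood at 412 CPM in the shallow and 146 CPM in the deep library, and Tspan2 at 556 and 505 CPM. Between depths in the 9-week medulla, 2 members were higher and 2 lower in shallow libraries, where 6.98% of all genes passed in either direction. With all libraries of the medulla fitted together and depth as a term, neither call remained, and both were lost without either SCA7 library. The log2 fold changes kept their sign in all 11 alternatives, from -2.20 to -1.57 for Tspan2 and from 0.97 to 1.72 for Plxnb3. The Tspan2 call in the cord held in 3 of 11 alternatives, where both SCA7 libraries were also shallow, and the cord count was 0 without either SCA7 library or WT replicate 2 and 4 without WT replicate 1.

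At 5 weeks the median over the members lay closer to 0 than that over all genes. The members' median was -0.36 on the log2 scale in the medulla, where all genes had -0.54, and -0.16 in the cord, where all genes had -0.29. In the medulla 18 members had SCA7 values below all WT values, beside 58.2% of all genes, and in the cord 13, beside 17.3%. With 2 libraries a group these counts are read only against the share over all genes. Depth is also partly tied to genotype in the 5-week cord, where only WT replicate 2 was deep. At 9 weeks Plxnb3 averaged 125 ± 55.6 CPM in the WT and 123 ± 38.8 CPM in the SCA7 medulla, so the 5-week difference was not seen there.

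At P8, when oligodendrocytes of the brainstem are still maturing, no member passed the test in either tissue by edgeR. In the medulla 0% of genes fell, and 7 members had an unadjusted p under 0.05, as had 559 of all genes. The members' log2 fold changes were negative for 36 of 37, with a median of -0.46 beside -0.05 over all genes, and 29 members had both SCA7 values below both WT values, beside 33.5% of all genes. Summed over the members, the level was 4819 and 6199 CPM in WT and 3257 and 4013 CPM in SCA7 medulla. Both WT medulla libraries were deep, while SCA7 replicate 1 was deep and replicate 2 shallow, so depth is partly tied to genotype. In replicates 1 and 2 the Schwann cell sums were 62.9 and 457 CPM in WT and 62.9 and 1217 CPM in SCA7. The meningeal sums were 243 and 1856 CPM in WT and 302 and 1125 CPM in SCA7. The part of these in the result was not tested. In the P8 cord 0% of genes fell and 0.00503% rose, 2 members had an unadjusted p under 0.05, and 26 members had SCA7 values below the single WT value, beside 63.3% of all genes. That comparison has 1 WT library, assumed in the fit to vary like the other groups. It is deep and both SCA7 libraries are shallow, so depth and genotype cannot be separated in the P8 cord. The choroid plexus genes summed to 38.3 CPM in the WT library and to 692 and 5808 CPM in the SCA7 libraries, and their part in the result was not tested.

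Between P8 and 5 weeks in WT medulla, 14 members rose and 4 fell (6.24% and 12.3% of all genes), and the members' log2 fold changes had a median of 0.69 beside -0.13. The 5-week values were all above the P8 values for 23 members and all below for 5, beside 33.2% and 34.4% of all genes. Serpinb1a went from 0.972 and 3.06 CPM at P8 to 22.7 and 31.2 CPM at 5 weeks (3.62 ± 0.49, adjusted p = 6.59e-05 by edgeR). Klk6 went from 11.4 and 8.27 to 29 and 86.1 CPM (2.43 ± 0.39), Itgb4 from 16.3 and 14.8 to 40.1 and 70.2 CPM (1.70 ± 0.30) and Cryab from 39.2 and 57.3 to 134 and 201 CPM (1.66 ± 0.38). For each of these 4 genes both 5-week values were above both P8 values. The other 10 that rose were Prr18, Galnt6, Efhd1, Evi2a, Tmem63a, Il33, Gng11, Anln, Tmem88b and Ppp1r14a, of which Prr18 rose most (1.60).

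The 4 members that fell with age were Sirt2, Gsn, Adamts4 and Hhip, a protein that binds hedgehog ligands. Sirt2 went from 823 and 629.5 CPM at P8 to 207 and 243.5 CPM at 5 weeks (-1.81 ± 0.21, adjusted p = 1.63e-05 by edgeR) and kept its call in 11 of 11 alternatives. Gsn went from 644 and 497 to 186 and 323 CPM (-1.28 ± 0.31), Adamts4 from 201 and 147 to 81 and 95.1 CPM (-1.11 ± 0.31) and Hhip from 50.9 and 42.1 to 18.6 and 29.3 CPM (-1.08 ± 0.33). The P8 and 5-week values of each did not overlap, but Hhip kept its call in only 2 of 10 alternatives. The count that rose was 6 without 5-week WT replicate 2 and 7 without P8 WT replicate 2. The count that fell was 1 without 5-week WT replicate 1 or P8 WT replicate 1, and 2 without 5-week WT replicate 2. Of the precursor list 7 of 10 genes fell over the same interval, of the transcription factors 5 of 8, of the lipid enzymes 3 of 7 (1 rose) and of the structural myelin genes 1 of 9 (1 rose). Of the other cell types, 3 of 6 astrocyte, 3 of 7 meningeal and 2 of 7 Schwann cell genes fell, and 3 of 8 neuron, 3 of 6 endothelial, 6 of 7 choroid plexus and 1 of 7 meningeal genes rose. The choroid plexus sum was 832 CPM in 5-week WT replicate 2, against 20.9 CPM in replicate 1 and 5.86 and 20.4 CPM at P8. The part of these in the members' result was not tested.

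**Figure D4:**
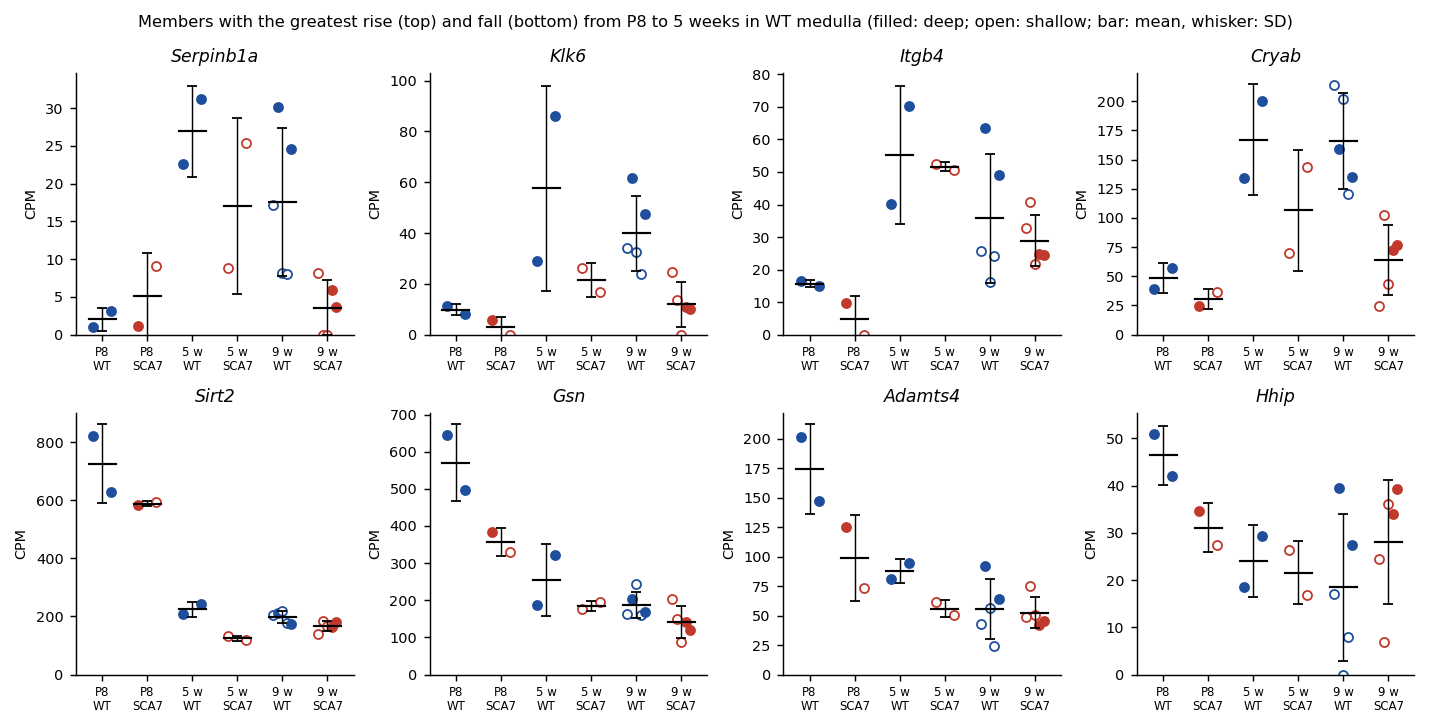
CPM (linear axis) in the medulla at P8, 5 weeks and 9 weeks of the 4 members with the largest rise (top) and the 4 with the largest fall (bottom) from P8 to 5 weeks in WT mice, with each library as a point (filled for deep, open for shallow), WT in blue, SCA7 in red, a bar at the mean and a whisker of 1 SD to each side. Serpinb1a, Klk6, Itgb4 and Cryab are higher at 5 weeks than at P8 in WT mice, and Sirt2, Gsn, Adamts4 and Hhip are lower.

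Between 5 and 9 weeks in WT medulla no member passed the test by edgeR (0.0473% of all genes fell and 0.0142% rose), and 2 had an unadjusted p under 0.05. Over P8 to 9 weeks 17 members rose and 4 fell in WT medulla (7% and 14.8% of all genes), and 11 rose and 6 fell in SCA7 medulla (6.22% and 9.89%). The SCA7 counts were 1 and 1 without P8 SCA7 replicate 1, the only deep library of its group. In the SCA7 cord 15 members rose and none fell (1.41% and 2.77% of all genes), from 2 shallow P8 libraries, and the count was 5 or 8 when 1 of those was left out. Over the same interval 5 of 7 choroid plexus genes (median -4.32), 4 of 6 astrocyte genes, 3 of 7 meningeal, 2 of 7 Schwann cell and 2 of 6 endothelial genes fell in the SCA7 cord, and their part in the members' result was not tested. The WT medulla count that rose was 9 without P8 WT replicate 2. The difference of the P8 to 9 weeks change between genotypes in the medulla passed for no member (0.00473% of all genes lower, 0.0189% higher), and 9 had an unadjusted p under 0.05. The 3 with the most negative estimates were Il33 (-2.03 ± 0.51, adjusted p = 0.181 by edgeR), Serpinb1a (-1.71) and Prr18 (-1.56).

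Members that rose with age and members that fell at 9 weeks were set side by side. The age change was taken between P8 and 5-week WT libraries, which the 9-week comparison did not use. The age fit also held the 9-week medulla libraries, which entered its filter and its estimate of spread. The calls set side by side are therefore not from independent data. Of the 14 that rose, beside 14 of all 37 members lower in the medulla and 18 of 37 in the cord, 6 were lower in SCA7 medulla at 9 weeks (Cryab, Efhd1, Il33, Klk6, Prr18 and Serpinb1a, 42.9% of each list) and 9 in the cord (these and Itgb4, Ppp1r14a and Tmem88b, 64.3% of the 14 and 50% of the 18). Of the 4 that fell with age, 0 were lower at 9 weeks in SCA7 medulla and 1, Gsn, in SCA7 cord. Across the 37 members the age change and the 9-week change had Pearson correlations of -0.378 in the medulla and -0.443 in the cord, and Spearman correlations of -0.238 and -0.344. Across all genes tested the Pearson values were -0.144 and 0.0334 and the Spearman values -0.146 and -0.0012. These are a description only.

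In WT mice at 9 weeks, 7 members were higher in the cord than in the medulla of the same mice and none was lower, beside 2.31% and 1.65% of all genes. The members' median log2 difference was 0.65 beside 0.04 over all genes, and 5 members had every cord value above every medulla value, beside 0.601% of genes. Padi2 stood at 68.5, 85.6, 80.9, 16 and 67.2 CPM in the WT medulla and at 242, 162, 168, 90.1 and 191 CPM in the WT cord (1.48 ± 0.30, adjusted p = 7.31e-05 by edgeR with the mouse as a block). Klk6 stood at 34.2, 61.6, 32.4, 24 and 47.6 CPM and at 209.7, 81.2, 75.4, 72 and 119 CPM (1.39 ± 0.33, adjusted p = 0.00153). For both genes every cord library was above every medulla library.

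Carns1, which makes the dipeptide carnosine, stood at 34.2, 67, 72.8, 16 and 53.5 CPM in the WT medulla and at 188, 132, 41.9, 117 and 119 CPM in the cord (1.28 ± 0.32, adjusted p = 0.00322 by edgeR), with 1 cord library among the medulla values. Gsn stood at 163, 203, 243, 160.3 and 167 CPM and at 401, 345, 252, 297 and 421 CPM (0.94 ± 0.25, adjusted p = 0.0067), without overlap. Plekhb1, Dbndd2 and Pllp were the other 3, at 0.87 to 0.89. The count of 7 became 4 without WT replicate 4, 0 without WT replicate 5 and 4 in a fit without the mouse as a block. Of the markers beside them, 4 of 7 Schwann cell genes, 5 of 7 meningeal genes and 4 of 9 structural myelin genes were also higher in the WT cord, and the part of these in the members' result was not tested.

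In SCA7 mice 10 members were higher in the cord and 1, Hhip, was lower (-0.47, adjusted p = 0.0015), beside 3.09% and 5.52% of all genes, with a members' median of 0.23. Padi2, Klk6 (1.24) and Carns1 (0.71) were higher in the cord in both genotypes. The count was 0 without SCA7 replicate 4 or 5, the deep libraries, 20 without SCA7 replicate 2 and 1 in a fit without the mouse as a block. No member had every SCA7 cord value above every SCA7 medulla value, beside 0.478% of genes. In these libraries 6 of 7 meningeal genes (median -2.04), 4 Schwann cell and 4 choroid plexus genes of 6 tested each (medians -2.19 and -2.69) and 3 of 6 endothelial genes were lower in the cord and 3 of 7 lipid enzymes were higher, and their part in the members' result was not tested. The highest levels per exonic kilobase at 9 weeks were those of Trf (331 CPM per kb) and Plekhb1 (291 CPM per kb) in the WT medulla and of Plekhb1 (535) and Trf (519) in the WT cord, with Cryab next at 112 and 172 CPM per kb.

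**Figure D5:**
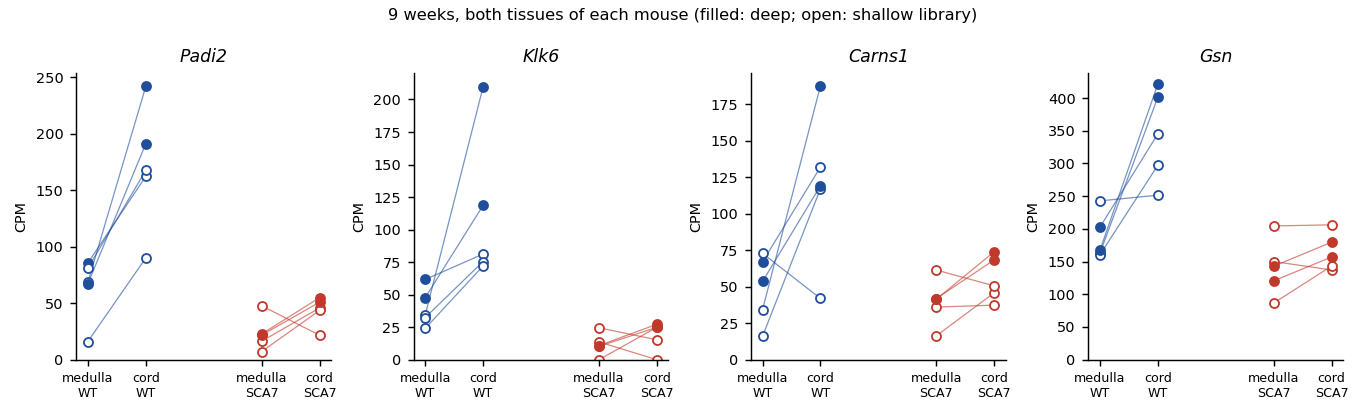
CPM (linear axis) of Padi2, Klk6, Carns1 and Gsn in each 9-week library of the medulla and the cervical spinal cord for WT (blue) and SCA7 (red) mice, filled for deep and open for shallow libraries, with lines joining the tissues of 1 mouse. The WT cord values of Padi2 (90.1 to 242 CPM) lie above the WT medulla values (16 to 85.6 CPM).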

How the data were processed

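RNA of medulla and cervical spinal cord was sequenced by the authors, who mapped reads to GRCm38 (mm10 per the labels) and kept reads with a single location. The deposited values are raw counts per gene symbol, 1 file per library. The counting tool and its strand setting are not given in the sources used here, so overlapping genes may share reads. Groups were taken from the labels. The members and gene lists were chosen with earlier results of these data known.

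Genes reaching 10 counts in any library of a fit, as in the study, were tested with edgeR 4.0.16 in R 4.3.3 (TMM factors, quasi-likelihood test, two-sided), with p-values adjusted by Benjamini-Hochberg over all genes tested and a threshold of 0.05. SCA7 and WT were compared within each tissue and age, ages within the medulla in 1 fit of its libraries, and tissues at 9 weeks with the mouse as a block. Mouse identifiers in the labels pair the tissues. Deviations of paired libraries correlated from -0.74 to 0.94 over 2619 genes, negative where depth differed and positive where it matched. These correlations therefore do not check the pairing. P8 cord has 1 WT library, which the fit assumes to vary like the others. CPM uses TMM factors over all 35 libraries. P-values of genotype and age measure the spread between mice, and those of tissue the spread of tissue differences within a mouse. In the shallow libraries both also hold counting error. WT replicates 1 and 2 of 9 weeks each pair a deep with a shallow library, so depth enters the tissue spread in WT mice. No pair of libraries agreed within sampling noise (21 pairs, lowest chi-square per degree of freedom 1.07). Scripts were tested on simulated counts, where wrong calls lay mostly among genes of low counts, and in the comparison of WT tissues outnumbered right ones. Calls of low members (Ninj2, Serpinb1a) and shares over all genes are therefore less certain than calls of most other members. Tmem125, Klk6 and Il33 also averaged only 2.17, 2.67 and 3.5 counts in the shallow medulla libraries of 9 weeks.

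Values in every library are given for members that fell in both tissues at 9 weeks and averaged 10 counts or more in shallow libraries, for at most 3 members a comparison at 5 weeks and P8, for the 4 largest changes a direction with age and for at most 4 by tissue. Other members are given by range and count, and members named beyond this were chosen after their values were seen. Alternatives were DESeq2 1.42.0, limma 3.58.1 (voom with sample weights), library totals, other filters, bias-adjusted deviances, other blocks and fits, single libraries left out and each depth alone. Promoter windows came from RefSeq, GRCm38.p6, and exonic lengths from an annotation of the same build.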

Additional observations from a re-analysis of the deposited data

Results flagged for a closer look

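Each member's 9-week values were checked by Dixon's test for 1 library standing apart from its group. Of 148 gene and group pairs, 9 stood out (6.08%), where chance flags about 1 in 20.

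SCA7 medulla replicate 2, the shallow library rich in 1 mitochondrial gene, was the far value for 4 members. Dbndd2 stood at 1600 CPM there (234 counts), with the other libraries at 259 to 363 CPM, and Prr18 at 164 CPM, with the others at 16.4 to 49.4 CPM. Adamts4 was at 75 CPM (others 42.2 to 50.5 CPM), and Gng11 was low at 6.82 CPM, which is 1 count (others 21.6 to 26.2 CPM). Without this library 19 members fell in the 9-week medulla, a count given without its share over all genes.

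In the WT medulla Anln was at 214 CPM in replicate 1 (others 142 to 162 CPM) and Rnf220 at 72.8 CPM in replicate 3 (others 136 to 156 CPM). In replicate 4 of that group Arhgef10 was at 96.2 CPM (others 150.1 to 172 CPM) and Padi2 at 16 CPM, which is 2 counts (others 67.2 to 85.6 CPM). In the SCA7 cord Plxnb3 was at 299 CPM in replicate 3 (others 124 to 173 CPM).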

How the results depend on the processing

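Counts are members past the threshold, given here without the share of all genes called in each fit. In 160 of 220 recomputed counts the value stayed within 1.5 times, with 0 against 0 taken as unchanged. A count has no sign and could not reverse. Of the recomputed 9-week medians of the members, 16 stayed within the pooled SD of the library medians and 6 moved further. None of these medians changed sign. Causes of the changes were not tested. Unless stated, the 9-week counts are of members that fell. Library totals gave 7 in the medulla and 8 in the cord (median -0.75), 0 higher in 5-week medulla, 0 lower in 5-week cord, 2 higher in WT cord than medulla, 6 in SCA7, 8 up and 1 down for P8 to 5 weeks, 8 up for P8 to 9 weeks in WT medulla, and 6 up and 3 down in SCA7 medulla. A minimum of 10 counts in every library, which leaves fewer members, gave 2 (median -0.31) in the medulla, 7 (median -0.81) in the cord, 0 in 5-week cord, 0 higher by tissue in WT, 0 higher and 0 lower in SCA7, 1 up and 2 down for P8 to 5 weeks, and for P8 to 9 weeks 2 up in WT medulla, 2 up and 3 down in SCA7 medulla and 3 up in SCA7 cord. No filter gave 9 in the medulla, 2 lower in 5-week medulla and 2 down for P8 to 5 weeks. DESeq2 gave 8 in the medulla, 0 in 5-week cord, 6 higher and 0 lower by tissue in SCA7, and 8 up and 2 down for P8 to 5 weeks. Bias-adjusted deviances gave 1 (median -0.40) and limma-voom 24, with 1 higher, in the medulla. Deep libraries alone gave 25 in the medulla and 0 in the cord, shallow alone 0 (median -0.33) and 6. Depth as a term, chosen after seeing the data, gave 22 in the medulla, 0 lower and 0 higher in 5-week medulla, 0 in 5-week cord, 13 higher in WT cord than medulla, 7 down for P8 to 9 weeks in WT medulla and 1 lower for its difference between genotypes. Fitting all libraries of a tissue together gave 0 lower and 0 higher in 5-week medulla and 0 in 5-week cord. P8 libraries alone gave 1 higher in P8 cord, and only the groups compared gave 3 down for P8 to 9 weeks in SCA7 medulla.

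Replicate numbers were not taken to pair WT with SCA7 mice. Deviations of same-numbered libraries correlated from -0.80 to 0.93, negative where depth differed and positive where it matched. These correlations therefore do not decide the pairing. With the replicate block 6 members fell in the 9-week medulla (median -0.39), 4 fell and 2 rose in the 5-week medulla, 1 fell in the P8 medulla, and 6 rose and 1 fell for P8 to 9 weeks in SCA7 medulla. With no replicate block (no mouse block) by tissue, 4 were higher in WT, and 1 was higher and 0 lower in SCA7.

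With single libraries left out, the 9-week medulla count ranged from 3 to 19 (median -0.69 to -0.36) and the cord count from 12 to 20 (median -1.17 to -0.85). The 5-week medulla gave 0 to 3 lower and 0 to 2 higher and the 5-week cord 0 to 4 lower. By tissue 0 to 8 were higher in WT, and 0 to 20 higher and 0 to 1 lower in SCA7. P8 to 5 weeks gave 6 to 13 up and 1 to 3 down. P8 to 9 weeks gave 9 to 17 up and 3 to 4 down in WT medulla, 1 to 13 up and 1 to 7 down in SCA7 medulla and 5 to 14 up in SCA7 cord. Depth limits low members: Ninj2 averaged 0.5 and 0 and Serpinb1a 0.833 and 2.17 counts in the shallow medulla and cord libraries. Among other members that fell in the medulla, Tmem125, Klk6 and Il33 averaged 2.17, 2.67 and 3.5 counts in its shallow libraries.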
